A study of Mus musculus with 30 samples.

Results

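Mouse embryonic stem cells (ESCs) kept for 24 h in EMM were compared with the same cells in Serum/LIF, by bulk RNA-seq across all genes. The comparison was chosen by its sample labels and takes 6 of the 30 libraries of the series, 3 of Serum/LIF and 3 of EMM at 24 h. The cells of both groups are E14tg2a, an established mouse ESC line, and both media hold serum and leukemia inhibitory factor (LIF), the cytokine that keeps mouse ESCs undifferentiated. EMM is the Serum/LIF medium with D-galactose in place of D-glucose and pyruvate. The labels give the Serum/LIF group a time of 0 h, while the treatment protocol also speaks of Serum/LIF for 24 h, so the medium and a difference in time in culture cannot be told apart here. The study's methods describe 3 biological replicates per condition of this one line. An SD below is the spread between those, while an SE comes from the fit of all libraries of its experiment. A further 6 libraries of the time course, after 3 and 9 h of EMM, shared the fit. ESCs of the same line kept for 10 or 20 passages in EMM or in Serum/LIF gave a second experiment with its own controls.

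Glucose is split by glycolysis into pyruvate, which is turned to lactate in the cytosol or burnt in the tricarboxylic acid (TCA) cycle of the mitochondrion. Galactose joins glycolysis only by way of the slow Leloir pathway, and cells fed on it are known to draw more on mitochondrial respiration. Cells sense their glucose in part through MondoA and ChREBP, transcription factors that pair with MLX and switch on Txnip and Arrdc4. Mouse ESCs in serum fluctuate between a naive state, close to the epiblast before implantation, and a formative or primed state that leans towards differentiation.

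The 6 libraries held 24074132 to 30321067 counts. Of 52630 genes in the table, 16049 had enough counts to be tested by edgeR's quasi-likelihood test, with p-values adjusted over all of them by the Benjamini-Hochberg method. A normalized count is a count scaled to the average effective library size, and a log2 fold change is EMM over Serum/LIF, so that 1 is a doubling. After 24 h of EMM, 561 genes were higher (3.5% of those tested) and 752 lower (4.69%) by more than 2-fold at an adjusted p under 0.01. With the adjusted p alone, 3501 genes were higher (21.8%) and 3556 lower (22.2%). TMM scaling sets the middle of the distribution near 0 (median log2 fold change 8.9e-05), so a shift of all genes together would not be seen, and the quartiles lay at −0.27 and 0.27. Changes of more than 4-fold numbered 83 upward and 122 downward.

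**Figure D1:**
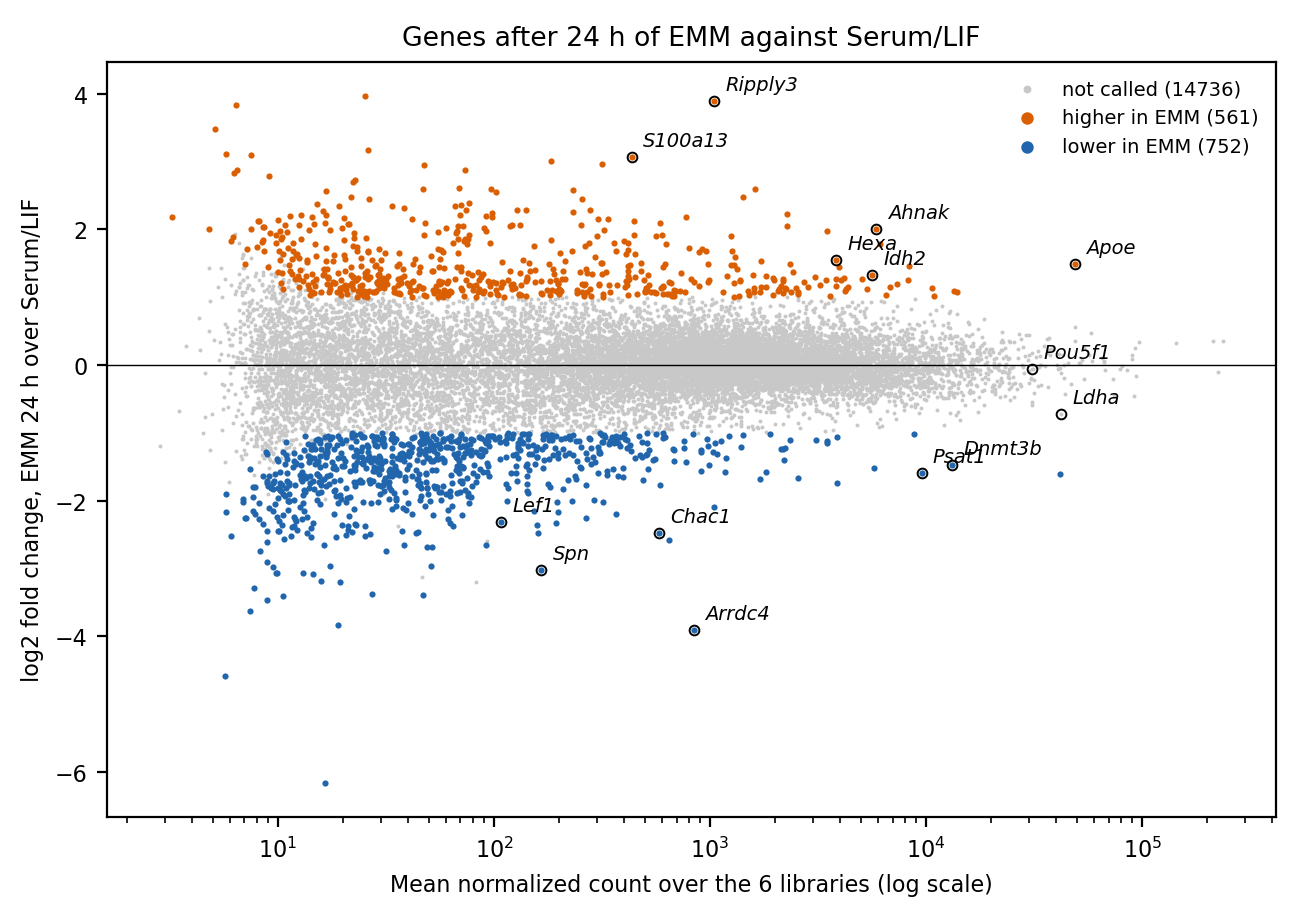
Each point is 1 of the 16049 tested genes, placed by its mean normalized count over the 6 libraries (horizontal axis, log scale) and its log2 fold change at 24 h of EMM against Serum/LIF (vertical axis). The 561 genes called higher are orange and the 752 called lower are blue, and labels mark some of the genes named in the text, from Ripply3 (3.89) to Arrdc4 (−3.91).

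Calls were not spread evenly over expression levels. Genes were ranked by edgeR's average log2 CPM over the 12 libraries of the fit. In the lowest quintile, with a median of 15.6 normalized counts, 348 were lower and 188 higher. In the highest quintile, with a median of 4266, 43 were higher and 11 lower. Of 13907 tested protein-coding genes 451 were called higher (3.24%) and 690 lower (4.96%). Of 388 lincRNA genes these were 30 (7.73%) and 27 (6.96%), and of 318 antisense genes 20 (6.29%) and 10 (3.14%). Of the 1313 called genes, 218 overlap another tested gene. The sources used here do not say whether reads were assigned by strand, so the reads of genes that overlap on opposite strands cannot be told apart, and such partners are named below where a named gene has one.

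In 3 of the 6 libraries some genes stood far from their mates. Among genes with at least 50 normalized counts in a library of the group, 77 were more than 2-fold below both mates in EMM replicate 1 and 27 in Serum/LIF replicate 2, against 0 or 1 in each of the other 4. These were mostly short genes, with median exon lengths of 1082 and 919 bases against 4016 over all tested genes, and 23 of them were low in both libraries. Both libraries carry the same replicate number in the descriptions. The ribosomal protein gene Rpl36 had 7321, 1862 and 11647 normalized counts in Serum/LIF and 1563, 14625 and 14259 in EMM and did not pass the test. With both libraries left out, 521 genes were called higher and 692 lower.

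Serum/LIF replicate 1 stood apart in another way, with 20 genes at more than 2 times both mates. It held 0.285% of its counts in ribosomal RNA genes, against 0.0967% to 0.125% in the other 5 libraries. The small nuclear RNA Rn7sk had 417, 23.7 and 39.2 normalized counts in the Serum/LIF libraries, in replicate order, and 24.2, 26.2 and 25.7 in EMM. The clustered histone genes moved with that library. Of 67 on the list, 19 were tested, 0 were higher and 2 lower, with a median of −0.79 that became 0.01 without Serum/LIF replicate 1. Without Serum/LIF replicate 2 or 3, 9 and 5 histone genes were lower, and without EMM replicate 1 none was. In a list of structured non-coding RNAs 1 of 6 tested members rose, 0 fell and the median was −0.76, while 4 fell without Serum/LIF replicate 2 (median −1.55), 2 rose without Serum/LIF replicate 1 (−0.21), and the median was −1.34 without EMM replicate 1. Among the called genes with the largest loss of reads, Gm26917 (136535, 29441 and 22691 in Serum/LIF, 25576, 16993 and 19239 in EMM) and the mitochondrial ribosomal RNA mt-Rnr1 (21266, 6960 and 7001, 5368, 6320 and 5659) were high in that library as well, and the Gm26917 groups overlap. Without that library their log2 fold changes went from −1.61 and −1.02 to −0.33 and −0.26, so that neither passed the 2-fold threshold. The call of mt-Rnr1 was lost with the replicate block (−0.91, edgeR adjusted p = 0.0129), at 10 counts in every library (−1.03, edgeR adjusted p = 0.0103) and without any 1 EMM library, and that of Gm26917 with the block by the numbers in the descriptions (−0.31, edgeR adjusted p = 0.0389) and without EMM replicate 2 or 3. Both were lost by DESeq2's Wald test (adjusted p = 0.0312 and 0.0205) and in the fit of only the 2 groups. Neat1, the long RNA that builds nuclear paraspeckles, was the structured RNA that rose, from 5143, 4504 and 3456 to 9143, 7004 and 8893 (log2 fold change 0.93, SE 0.15, edgeR adjusted p = 8.26e-05).

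Markers of ESCs were abundant in both media. Pou5f1, the gene of the pluripotency factor OCT4, had 31163, 31928 and 31495 normalized counts in Serum/LIF and 30889, 29802 and 30214 in EMM (log2 fold change −0.06, SE 0.03, edgeR adjusted p = 0.119). The sum over 12 ES identity genes was 207479 to 214694 in Serum/LIF and 201457 to 209399 in EMM, and 1 of them rose while 3 fell (adjusted p under 0.01). Markers of other cell types were summed in the same way. The sum over 10 fibroblast genes was 2032 to 2140 against 1569 to 1754 normalized counts, with 1 of 7 tested genes higher and 3 lower, or 1 lower without Serum/LIF replicate 1 or EMM replicate 2. For 10 mesendoderm genes it was 1098 to 1151 against 950.0 to 1041, with 1 of 9 tested genes higher and 2 lower. Kdr, a receptor of vascular growth factor, rose (9.69, 24.7 and 19.0 to 80.2, 68.1 and 85.3), and Lhx1 (32.7, 26.6 and 43.6 to 7.73, 5.24 and 13.4) and T, the gene of Brachyury (466, 457 and 401 to 292, 266 and 257), fell. For 10 neural genes it was 4937 to 5773 against 5806 to 6287, with 6 of 8 tested genes higher and 0 lower. Sox1, a factor of the early neural plate, went from 228, 220.1 and 228 to 693, 583 and 604. No gene of a 2-cell embryo list had enough counts to be tested. In bulk RNA, fewer cells of a type and less RNA per cell cannot be told apart.

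Arrdc4 fell most among the genes with at least 50 normalized counts in either group. It encodes an arrestin-like protein that limits glucose uptake, is a direct target of MondoA and ChREBP, and lies on chromosome 7 from 68736995 to 68749241 (GRCm38). It had 1519, 1599 and 1615 normalized counts in Serum/LIF and 100.5, 108 and 107 after 24 h of EMM. The groups lie far apart (log2 fold change −3.91, SE 0.08, edgeR adjusted p = 4.98e-14). Against the same controls it stood at −2.16 at 3 h and −3.58 at 9 h. Mlxipl, which encodes ChREBP, had 291, 287 and 286 in Serum/LIF and 122, 141 and 146 in EMM (log2 fold change −1.08, SE 0.08, edgeR adjusted p = 4.25e-08). Mlxip, the gene of MondoA, and Mlx did not pass the test (−0.14 and 0.00), so that 2 of 4 tested glucose-sensing genes fell and 0 rose, and Mlx overlaps Psmc3ip on the opposite strand. Txnip was not analysed here in the time course. In the passage experiment it had 2646 ± 282 normalized counts in Serum/LIF and 40.5 ± 11.9 in EMM at passage 10 (SD, n = 3, log2 fold change −6.15, SE 0.21, edgeR adjusted p = 1.95e-13).

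MondoA and ChREBP bind pairs of E-boxes, whose core reads CACGTG. In the 250 bases before the start, on either strand, that core is present for 1854 of 27025 genes with a RefSeq promoter (6.86%), and for 9.75% of the 11434 of those that were tested. Of the 4 tested glucose-sensing genes it was found for Arrdc4, Mlx and Mlxipl, of which Arrdc4 and Mlxipl fell. The window of Arrdc4 is shown because this gene led the falls. It covers 100 bases of GRCm38.p6, chr7:68749379-68749478, read on the minus strand, and the capitals mark the core, 193 bases before the RefSeq start.
Arrdc4: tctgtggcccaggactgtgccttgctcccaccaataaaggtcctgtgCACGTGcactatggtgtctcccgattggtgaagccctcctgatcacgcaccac

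The other 14 of the 15 largest falls had log2 fold changes from −3.40 to −2.46. Spn, the gene of the leukocyte surface protein CD43, had 306, 306 and 273 normalized counts in Serum/LIF and 35.8, 39.8 and 32.9 in EMM. Actn3, a muscle alpha-actinin, had 1137, 1114 and 1059 and 189.5, 166 and 200.4, and Crabp1, which binds retinoic acid in the cytosol, 253, 292 and 264 and 54.1, 50.3 and 41.1. The 15 falls were picked among genes whose groups do not overlap, so their separation is not a further result. Hfe2 encodes hemojuvelin, a co-receptor for bone morphogenetic proteins, and fell by 2.68 on the log2 scale. Pax8, a paired-box factor of thyroid and kidney, fell by 2.65, and the contractile gene Myh3 by 2.96. Bcas1, Padi3, Platr5, Slc24a1, Tmem54, Rbm44, Cpn1 and Chac1 make up the rest, and Tmem54 overlaps Hpca on the opposite strand.

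Ripply3 led the rises. It encodes a co-repressor that works with T-box factors, and lies on chromosome 16 from 94328420 to 94336935. It had 129.6, 133 and 132 normalized counts in Serum/LIF and 1856, 1959 and 2050 in EMM, 14.8-fold more (log2 fold change 3.89, SE 0.08, edgeR adjusted p = 4.98e-14). S100a13 and S100a1, neighbors on chromosome 3 that encode small calcium-binding proteins, came next. S100a13 had 94.5, 85.9 and 98.5 against 772, 773 and 782, and S100a1 had 41.2, 43.4 and 36.9 against 294, 369 and 319. They were 8.35-fold and 8.07-fold higher.

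The other 12 of the 15 largest rises had log2 fold changes from 2.39 to 2.97. Afap1, which ties SRC signaling to actin filaments, had 425, 425 and 445 normalized counts in Serum/LIF and 2393, 2359 and 2484 in EMM (log2 fold change 2.48, SE 0.05, edgeR adjusted p = 4.98e-14). Ankrd33b, an ankyrin repeat gene, had 426, 441 and 508 and 2896, 2650 and 2792. The homeobox genes Meis2 and Irx2 rose by 2.61 and 2.45 on the log2 scale. Spi1, the gene of the blood cell factor PU.1, stayed at a low level even so, with 14.5, 8.88 and 8.95 against 59.9, 112 and 79.1 normalized counts. The others were Dock10, Fam189a2, Gm39458, Tll1, Sept4, Cemip and Serpinb8.

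**Figure D2:**
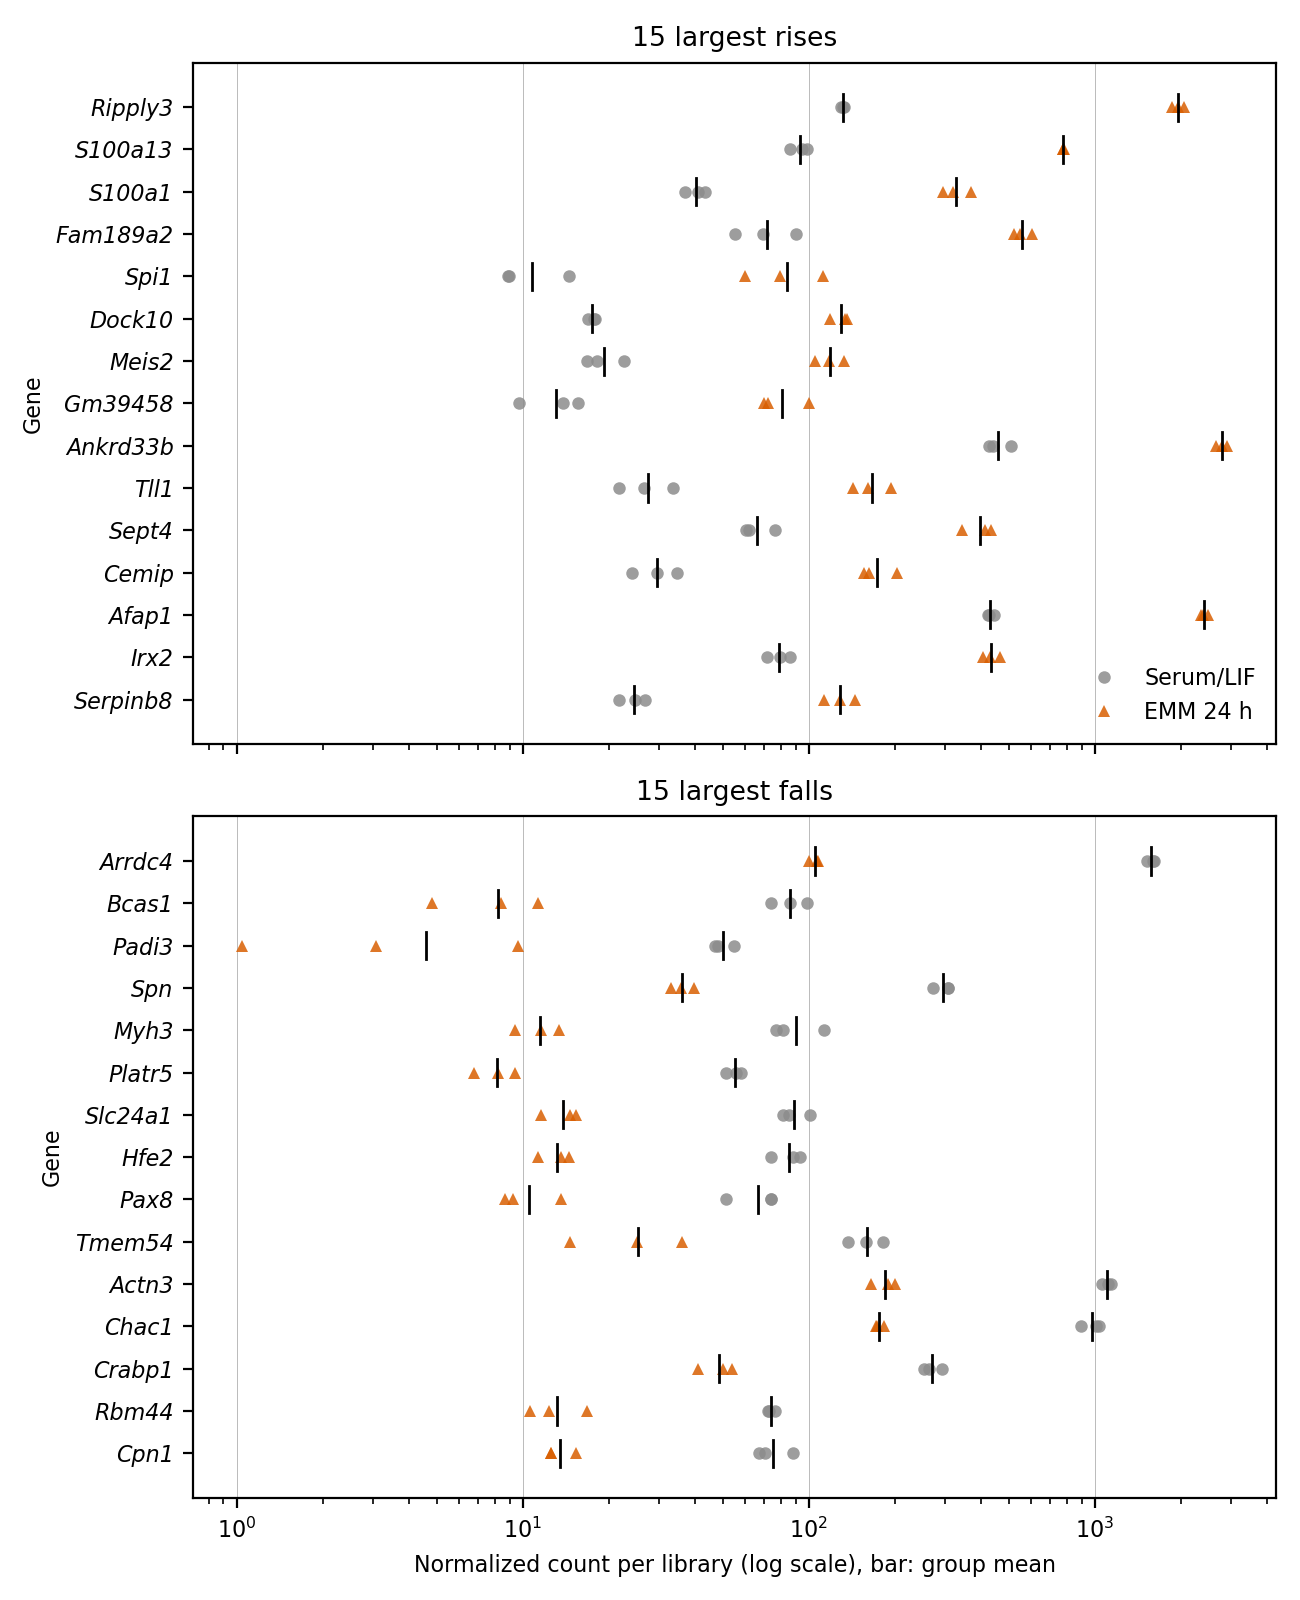
Normalized counts (horizontal axis, log scale) of the 15 largest rises (upper panel) and 15 largest falls (lower panel) in each of the 3 Serum/LIF libraries (grey circles) and the 3 EMM 24 h libraries (orange triangles), with each group's mean as a vertical bar. Genes were chosen for groups that do not overlap, and run from Ripply3 (means of 132 and 1955) to Arrdc4 (1577 and 105).

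Counted in reads gained rather than fold, Apoe stood first among the genes called higher. This gene of a lipid-carrying apolipoprotein had 25339, 22253 and 29399 normalized counts in Serum/LIF and 56844, 77603 and 81906 in EMM (log2 fold change 1.49, SE 0.12, edgeR adjusted p = 8.59e-08). Tfcp2l1, Hspg2, Etnk1, Parvb, Sec14l1, Ahnak, Vat1, Mme and Llgl2 followed, and Vat1 overlaps Rnd2 on the opposite strand. Ahnak, a giant scaffold protein gene, had 2585, 2021 and 2434 against 8776, 9373 and 10144, 4.02-fold more. Besides the RNAs that were high in Serum/LIF replicate 1, the largest losses of reads were those of Dnmt3b, Psat1, Mycn, Prps1, Pdzd4, Dnmt3a, Adgrl1 and Emb, of which Pdzd4 overlaps Gm14817 and Adgrl1 overlaps Gm10644 on the opposite strand. Prps1, which makes the sugar phosphate for nucleotide synthesis, had 5897, 6131 and 5921 in Serum/LIF and 1849, 1817 and 1685 in EMM, 3.35-fold less (log2 fold change −1.75, SE 0.04, edgeR adjusted p = 1.39e-13).

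For the gene lists that follow, a member counts as changed when its adjusted p over all genes is under 0.01, beside the 21.8% and 22.2% of all tested genes that did so. Galactose enters through the Leloir genes, of which 2 of 7 rose and 1 fell. Galm, the mutarotase that readies galactose for the pathway, had 619, 677 and 621 normalized counts in Serum/LIF and 1095, 1189 and 1146 in EMM (log2 fold change 0.84, SE 0.06, edgeR adjusted p = 1.36e-08). Galk1, the kinase of the next step, went the other way, with 3922, 3584 and 3616 against 2409, 2389 and 2570 (−0.59). Of 23 genes from glucose uptake to lactate export, 5 were higher and 11 lower, with a median of −0.11, and 7 were lower without Serum/LIF replicate 1 or 2. The median was −0.05 without Serum/LIF replicate 2 and −0.07 without EMM replicate 2. The lactate dehydrogenases split. Ldha, the form that favors lactate, fell from 52967, 55453 and 49757 to 33779, 31189 and 30538 (log2 fold change −0.73, SE 0.05, edgeR adjusted p = 9.72e-09). Ldhb, the form that favors pyruvate, rose from 2917, 3075 and 2772 to 5398, 5105 and 5183 (log2 fold change 0.84, SE 0.05, edgeR adjusted p = 1.57e-09). Pfkfb3, which makes an activator of phosphofructokinase, rose by 0.96 on the log2 scale. Of 7 pentose phosphate genes 2 rose and 3 fell.

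Pyruvate enters the mitochondrion through a carrier and the pyruvate dehydrogenase complex, and 5 of 14 genes of this step rose and 4 fell. Mpc1, a carrier subunit, had 93.2, 81.9 and 77.2 normalized counts in Serum/LIF and 136, 158 and 152 in EMM (log2 fold change 0.82, SE 0.13, edgeR adjusted p = 4.94e-05). Pdk2, which switches the complex off, fell by 0.76 on the log2 scale, and Pdp1, which switches it on, by 0.79. In the TCA cycle 8 of 18 genes rose and 3 fell, with a median of 0.08. Idh2, the mitochondrial isocitrate dehydrogenase that uses NADP, had 3174, 3319 and 3155 in Serum/LIF and 8130, 7923 and 8057 in EMM. It was 2.50-fold higher (log2 fold change 1.32, SE 0.04, edgeR adjusted p = 1.17e-12), while the next rise in the list was 0.30, of Idh3b, which overlaps Nop56 on the opposite strand.

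Genes of the respiratory chain moved by small steps. Of 89 nuclear genes 86 were tested, 26 rose and 4 fell, with a median of 0.14. Cox7a2l, which helps to assemble respiratory supercomplexes, rose most, from 1751, 1708 and 1641 to 2825, 2645 and 2559 normalized counts (log2 fold change 0.66, SE 0.04, edgeR adjusted p = 1.35e-08). Cox4i2, the form of a cytochrome oxidase subunit known for low oxygen, fell from 21.8, 17.8 and 20.1 to 0.967, 3.14 and 7.20. Of 13 proteins encoded in the mitochondrial genome 7 were tested, 4 rose and 0 fell, with a median of 0.34. The risers were mt-Cytb, mt-Co1, mt-Nd5 and mt-Nd6, the last pair overlapping on opposite strands. Ribosomal protein genes parted by compartment. Of 79 of the cytosolic ribosome 45 rose and 0 fell (median 0.19), and of 77 of the mitochondrial ribosome 2 rose and 24 fell (median −0.10). Some members were low in EMM replicate 1 or Serum/LIF replicate 2, more than 2-fold below both mates: 7 of the nuclear respiratory genes, 4 of the cytosolic and 6 of the mitochondrial ribosomal genes. With both libraries left out the genes that rose and fell were 26 and 2, 44 and 0, and 3 and 20 in these lists (medians 0.17, 0.24 and −0.06). Without EMM replicate 1 alone 6 mitochondrial ribosomal genes rose and the median was −0.05, and without EMM replicate 3 alone 1 did. Of the respiratory genes 2 fell without Serum/LIF replicate 2 or EMM replicate 3.

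Genes of the integrated stress response were mostly lower. This response, carried by the factor ATF4, raises amino acid transport and synthesis when amino acids run short or proteins misfold. Of 25 genes 24 were tested, 17 fell and 1 rose, with a median of −0.55. Chac1, which breaks down glutathione, had 1035, 1014 and 899 normalized counts in Serum/LIF and 184, 172 and 173 in EMM, 5.58-fold less (log2 fold change −2.48, SE 0.08, edgeR adjusted p = 8.58e-12). Pck2, the mitochondrial PEP carboxykinase, had 1833, 1722 and 1730 against 599, 575 and 594. Gdf15, a secreted stress hormone, had 109, 123 and 135 against 40.6, 28.3 and 37.0. The groups of Pck2 and Gdf15 do not overlap, which holds for 1308 of the 1313 called genes. Atf4 itself fell by 0.41 on the log2 scale. The member that rose was Atf5 (0.40), which overlaps Nup62 on the opposite strand and did not pass the test with Serum/LIF replicate 2 and EMM replicate 1 both left out (0.34).

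ATF4 binds composite sites together with C/EBP factors, and TTGCATCA is a form of such a site. On either strand of the 250 bases before the start it is present for 248 of 27025 genes (0.918%) and for 0.638% of the tested ones. Of 21 listed stress genes with a RefSeq promoter it was found for Atf3, Chac1, Fgf21, Nupr1, Slc7a11 and Vldlr. Chac1, Nupr1 and Atf3 fell (−2.48, −0.97 and −0.54), Slc7a11 and Vldlr did not pass the test (−0.01 and −0.24), and Fgf21 was not tested. The call of Atf3 was lost without EMM replicate 3 (−0.45) or Serum/LIF replicate 2 (−0.50). The windows of Chac1 (GRCm38.p6, chr2:119351003-119351102, plus strand) and Nupr1 (chr7:126625527-126625626, minus strand) are shown as those of the holders that fell most, with the motif in capitals.
Chac1: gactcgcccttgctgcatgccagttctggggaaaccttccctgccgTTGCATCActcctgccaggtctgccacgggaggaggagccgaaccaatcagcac
Nupr1: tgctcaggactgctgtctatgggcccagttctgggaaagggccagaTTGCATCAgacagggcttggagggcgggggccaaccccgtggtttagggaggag

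Serine synthesis and one-carbon metabolism fell with them. Of 13 genes 9 fell and 3 rose, with a median of −0.47. Psat1, the aminotransferase on the way from glycolysis to serine, had 14357, 14622 and 14050 normalized counts in Serum/LIF and 4933, 4691 and 4630 in EMM (log2 fold change −1.59, SE 0.04, edgeR adjusted p = 4.85e-13). The enzymes before and after it, Phgdh and Psph, fell by 1.11 and 1.38 on the log2 scale, and Psph overlaps Cct6a on the opposite strand. Aldh1l1, which takes one-carbon units off folate, went against the list, from 196, 194 and 197 to 669, 605 and 630.0 (log2 fold change 1.70, SE 0.07, edgeR adjusted p = 8.41e-11). Of 12 genes of glutamine uptake and use 8 fell and 3 rose, with Psat1 and Asns shared with the lists above. Glud1, which leads glutamate into the TCA cycle, was among the risers (0.37), and Gls2 fell by 0.85, a gene that overlaps Spryd4 on the opposite strand. Of 20 chaperones of the endoplasmic reticulum 4 were higher and 6 lower, close to the shares of all tested genes.

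Lysosomal genes rose. Of 23, 18 were higher and 1 lower, with a median of 0.61. Hexa, a subunit of the enzyme that degrades gangliosides, had 2040, 1854 and 2000 normalized counts in Serum/LIF and 5265, 6040 and 5868 in EMM, 2.91-fold more (log2 fold change 1.54, SE 0.06, edgeR adjusted p = 1.61e-11). Npc2, which hands cholesterol on within the lysosome, had 3630, 3539 and 2845 against 7940, 6944 and 6984. Naglu was the member counted as lower (−0.38), a call that was lost by DESeq2's Wald test (adjusted p = 0.0183), in edgeR's fit of only the 2 groups, with replicates blocked by the numbers in the descriptions (edgeR adjusted p = 0.0148) and in each fit without 1 EMM library or without Serum/LIF replicate 2 (log2 fold changes −0.38 to −0.25). Of 11 genes of TFEB, TFE3 and the folliculin branch of nutrient signaling 8 rose and 2 fell, with a median of 0.59. Tfeb, whose product drives lysosomal genes, had 1792, 1763 and 1581 against 3577, 3250 and 3344 (log2 fold change 0.99, SE 0.06, edgeR adjusted p = 5e-09). Its relative Tfe3 fell from 4783, 4915 and 4361 to 3317, 3071 and 2843, while Flcn, the folliculin gene, and its partners Fnip1 and Fnip2 rose by 0.63, 0.75 and 0.88.

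TFEB binds an E-box with set flanks, searched here as TCACGTGA, which contains the core CACGTG used above. It lies in the 250 bases before the start, on either strand, for 245 of 27025 genes (0.907%) and for 1.64% of those tested. Of 18 lysosomal genes with a RefSeq promoter it was found for Ctsa, Ctsd, Gla and Mcoln1, and the shorter core for 9. Ctsa, Ctsd and Mcoln1 rose (0.73, 0.51 and 0.56), Gla did not pass the test (−0.15), and Ctsa overlaps Neurl2 and Pltp on the opposite strand. The windows of Mcoln1, a lysosomal cation channel gene (GRCm38.p6, chr8:3500419-3500518, plus strand), and Ctsd, the gene of cathepsin D (chr7:142387873-142387972, minus strand), are shown with the motif in capitals. They can be set beside that of Arrdc4, which holds the same core and fell.
Mcoln1: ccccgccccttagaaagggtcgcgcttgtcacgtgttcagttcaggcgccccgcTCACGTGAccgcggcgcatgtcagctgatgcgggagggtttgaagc
Ctsd: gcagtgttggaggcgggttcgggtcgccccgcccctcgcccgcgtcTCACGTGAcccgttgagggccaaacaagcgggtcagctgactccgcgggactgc

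Among lipid genes, those of cholesterol synthesis and uptake mostly rose. Of 24 genes of cholesterol synthesis and uptake 15 rose and 1 fell, with a median of 0.28. Of 12 genes of fatty acid synthesis 4 rose and 1 fell (2 without Serum/LIF replicate 3 or EMM replicate 1), and of 22 of fatty acid oxidation 6 rose and 5 fell, with 3 falling without Serum/LIF replicate 1 or EMM replicate 3. The oxidation counts lie near the shares of all tested genes. Cpt1a, the gate for fatty acids into the mitochondrion, rose by 0.37 on the log2 scale, and its partner Cpt2 fell by 0.48.

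Redox and oxygen-linked genes were read against the same shares of all tested genes. Of 16 targets of the antioxidant factor NRF2 5 rose and 3 fell, with Nqo1, a quinone reductase, at 1.08 and Hmox1, heme oxygenase, at −0.69, and 3 rose without Serum/LIF replicate 3. Of 16 genes linked to hypoxia 4 rose and 4 fell, near those shares. Of 7 sirtuins, NAD-dependent deacylases, 3 rose and 1 fell. Sirt1 had 5009, 5291 and 5148 normalized counts in Serum/LIF and 9476, 9548 and 9349 in EMM (log2 fold change 0.88, SE 0.04, edgeR adjusted p = 8.22e-11).

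Factors of the naive state rose more often than they fell, and genes of the formative state mostly fell. Of 15 naive factors 7 rose and 2 fell (median 0.13, or 0.24 with 8 rising and 3 falling without Serum/LIF replicate 3), and of 16 formative or primed genes 1 rose and 12 fell (median −0.89). Tfcp2l1, a naive factor, had 9255, 8139 and 9467 normalized counts in Serum/LIF and 19363, 18934 and 18372 in EMM (log2 fold change 1.08, SE 0.05, edgeR adjusted p = 4.08e-10). Nanog had 13099, 12958 and 12227 against 13349, 13967 and 12991 and did not pass the test. Dppa3, a gene of oocytes and naive ESCs, went against its list, from 501, 528 and 502 to 126, 135 and 118 (log2 fold change −2.02, SE 0.08, edgeR adjusted p = 5.26e-11). Lef1, a factor of the Wnt pathway counted among the primed genes, fell from 194, 194 and 153 to 42.5, 35.6 and 29.8, 5.01-fold. Zic2 and Otx2, factors of the primed epiblast, fell by 1.70 and 1.31 on the log2 scale.

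The enzymes that set new DNA methylation fell. Dnmt3b had 19504, 19428 and 19299 normalized counts in Serum/LIF and 7171, 6879 and 6972 in EMM (log2 fold change −1.47, SE 0.03, edgeR adjusted p = 6.06e-14). Dnmt3a had 3827, 3969 and 3810 against 1330, 1184 and 1154 (log2 fold change −1.66, SE 0.05, edgeR adjusted p = 4.56e-12). Dnmt1, which copies methylation at replication, had a log2 fold change of 0.03 and did not pass the test. In all, 4 of 9 writers and erasers fell and 0 rose. Germline genes, many of which methylation is known to silence, were lower too: of 16, 15 were tested, 12 fell and 0 rose, with a median of −0.73. Without Serum/LIF replicate 3 or EMM replicate 1, 9 of them fell. Mov10l1, of the piRNA pathway, had 151, 155 and 154 against 59.0, 59.7 and 57.6.

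Lineage genes of the blastocyst rose more often than they fell. Of 20 primitive endoderm genes 11 rose and 4 fell, with a median of 0.54, and 2 fell without EMM replicate 2 or 3. Gata6, which specifies this lineage, had 31.5, 21.7 and 13.4 normalized counts in Serum/LIF and 61.9, 52.4 and 50.4 in EMM (log2 fold change 1.32, SE 0.24, edgeR adjusted p = 0.000245), and Sox17 had 7.27, 2.96 and 7.83 against 15.5, 19.9 and 19.5. Of 16 tested trophectoderm genes 10 rose and 4 fell. Gata3 had 31.5, 27.6 and 24.6 against 123, 111 and 112 (log2 fold change 2.05, SE 0.14, edgeR adjusted p = 1.42e-08), while Cdx2, which holds that lineage, had 84.8, 69.1 and 58.2 against 44.5, 29.3 and 27.8 (log2 fold change −1.04, SE 0.20, edgeR adjusted p = 0.000337).

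**Figure D3:**
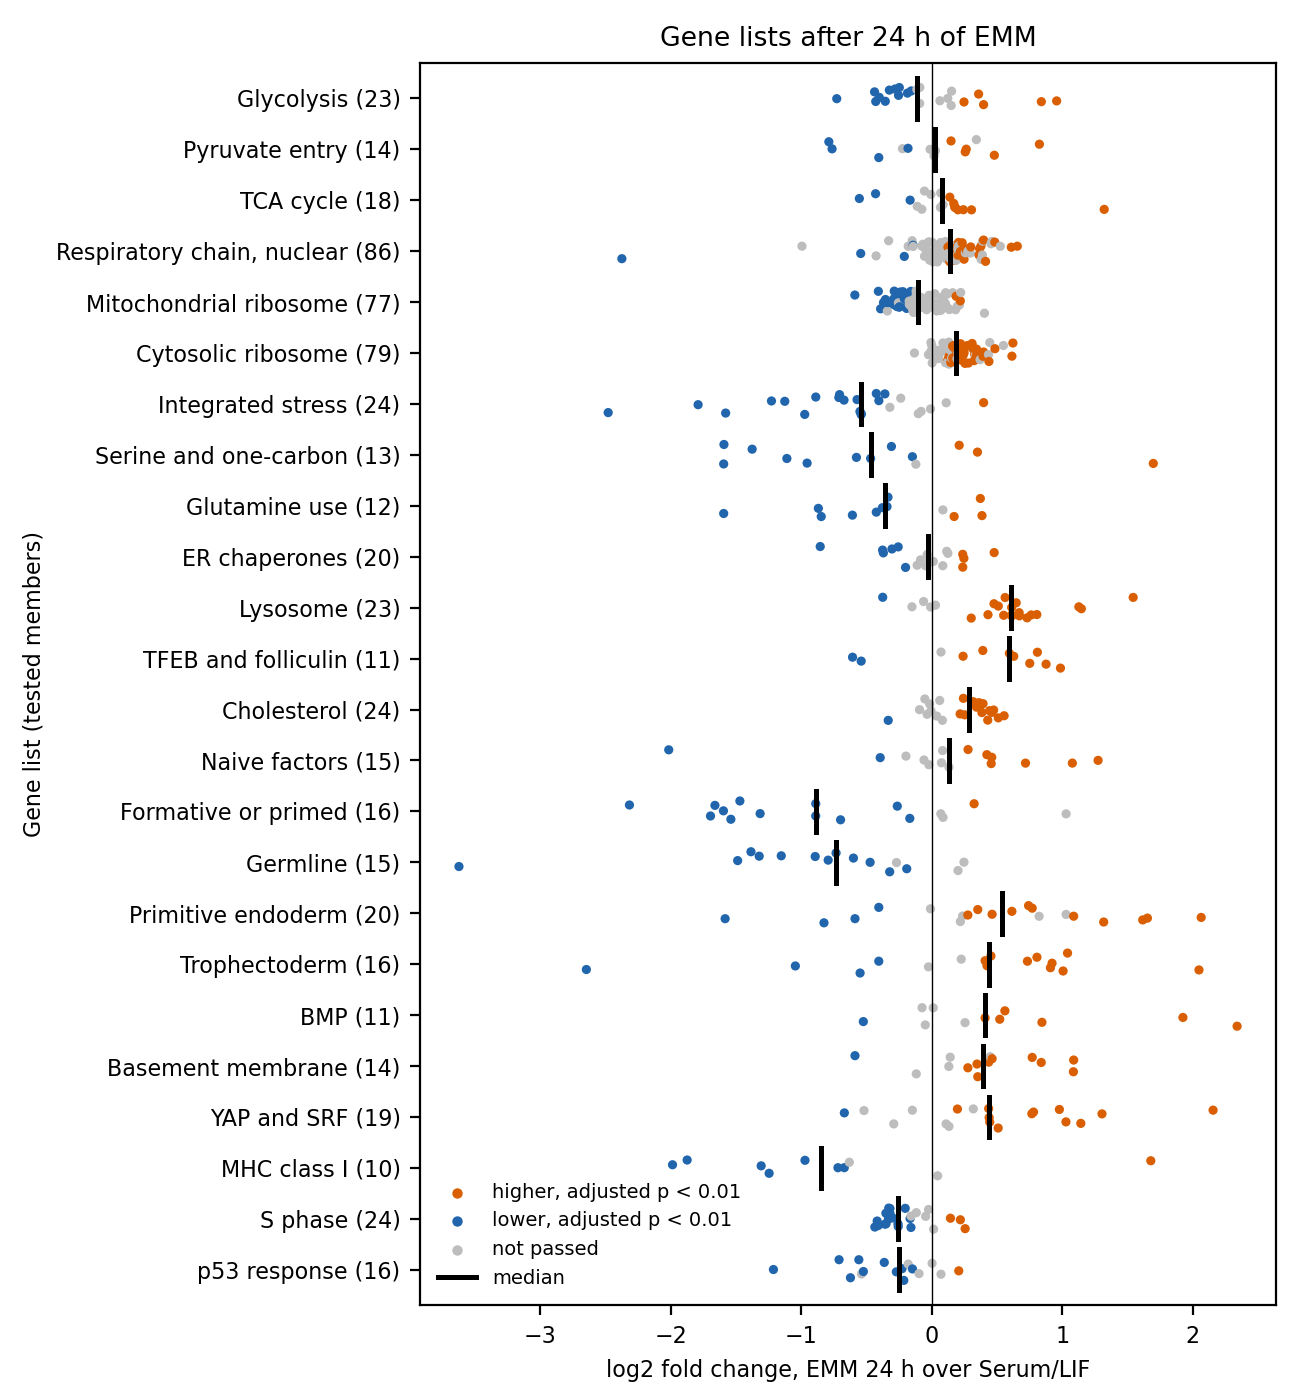
Log2 fold changes at 24 h of EMM against Serum/LIF (horizontal axis) of every tested member of 24 gene lists, 1 line per list with its tested number, the list's median as a black bar and members past an adjusted p under 0.01 in orange or blue. The formative or primed list has its median at −0.89 and the integrated stress list at −0.55, and the lysosome and folliculin lists have theirs at 0.61 and 0.59.

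Signaling targets were counted by pathway, and no difference between pathways was tested. Of 11 genes of bone morphogenetic protein (BMP) signaling 6 rose and 1 fell. The largest rises there were of Grem1, a secreted BMP inhibitor (13.3, 11.8 and 7.83 to 53.2, 61.8 and 53.5), and Id4, a target (186, 210.3 and 159 to 728, 696 and 692), and Bmp4, a ligand, rose by 0.56 on the log2 scale and overlaps Gm15217 and Gm15222 on the opposite strand. Of 9 Nodal pathway genes 1 rose and 5 fell, the inhibitors Lefty1 and Lefty2 by −0.43 and −0.53. Of 13 tested Wnt targets 2 rose and 5 fell, with the effector gene Tcf7 at −0.90. Of 16 genes of ERK output 7 rose and 6 fell, the feedback phosphatase Dusp6 at 0.63 and Egr1, an early target, at −0.82. Of 13 genes of LIF and STAT3 4 rose and 2 fell, with Socs3, a feedback inhibitor, at 0.70. Of 15 immediate early genes 3 rose and 5 fell. The counts of this list and of the LIF and STAT3 list lie near the shares of all tested genes. Without 1 library the falls were 3 in the Nodal list (Serum/LIF replicate 1 or EMM replicate 2 or 3) and 3 in the immediate early list (Serum/LIF replicate 2 or EMM replicate 3).

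Matrix and cytoskeletal genes were mostly higher. Of 14 basement membrane genes 9 rose and 1 fell, with a median of 0.39. Hspg2, the gene of perlecan, had 8824, 7429 and 9649 normalized counts in Serum/LIF and 17976, 17101 and 19864 in EMM, and Lamb1, a laminin chain, fell by 0.59 on the log2 scale. Col4a1 and Col4a2 rose by 0.77 and 1.09 and overlap each other on opposite strands. Of 19 tested targets of YAP and SRF, factors that answer to cell tension, 12 rose and 1 fell. The actin gene Acta1 had 119.9, 133 and 118 against 616, 509 and 530.3. Of 15 adhesion and mesenchymal genes 8 rose and 4 fell. Those that fell were the epithelial genes Cdh1, Cdh3, Epcam and Cldn6, from −0.41 to −1.47, and Vim, Zeb1 and Snai1 were among the risers (0.70, 0.84 and 0.85). The epithelial gene Cldn4 rose as well (0.39), and Cldn7 did not pass the test (0.07).

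Genes that present antigen on MHC class I parted from its light chain. Of 10 genes 7 fell and 1 rose, with a median of −0.84. H2-K1, a heavy chain, had 1534, 1699 and 1365 normalized counts in Serum/LIF and 673, 596 and 590.0 in EMM (log2 fold change −1.31, SE 0.08, edgeR adjusted p = 2.68e-09), and the peptide pump gene Tap2 had 96.9, 73.0 and 102 against 15.5, 26.2 and 26.7. B2m, the light chain, rose from 603, 596 and 605 to 1894, 2099 and 1781 (log2 fold change 1.68, SE 0.06, edgeR adjusted p = 1.21e-11) and overlaps Patl2 on the opposite strand. Of 12 tested interferon genes 6 fell and 0 rose.

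Cell cycle genes were lower by small amounts. Of 24 S phase genes 16 fell and 3 rose (median −0.26, with 1 rising without Serum/LIF replicate 1), and of 20 of G2 and mitosis 15 fell and 1 rose (median −0.24). Of 18 regulators of G1 7 fell and 4 rose. Cdkn1c, an inhibitor of cyclin-dependent kinases from an imprinted locus, had 2653, 2507 and 2595 normalized counts in Serum/LIF and 801, 829.5 and 790.4 in EMM (log2 fold change −1.68, SE 0.04, edgeR adjusted p = 3.79e-13). Mycn, a transcription factor gene of the MYC family, had 8457, 8767 and 8392 against 3093, 2995 and 2898 (log2 fold change −1.51, SE 0.04, edgeR adjusted p = 3.79e-13), and of 22 genes of the MYC network and ribosome assembly 10 fell and 2 rose. Of 16 genes of the p53 response 10 fell and 1 rose. Of 15 tested BCL2 family genes 5 rose and 6 fell, with 3 rising without EMM replicate 3. The survival genes Bcl2 and Bcl2l1 rose by 1.26 and 0.77, and the death genes Bmf, Bbc3 and Bok fell by 1.25, 1.21 and 1.20 on the log2 scale. Hrk and Bid, also death genes, were among the 5 that rose (0.48 and 0.21). The survival gene Mcl1 did not pass the test (−0.07), and Bid overlaps Bcl2l13 on the opposite strand.

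For many genes the change was present by 9 h. Against the same Serum/LIF libraries, 249 of the 561 higher and 420 of the 752 lower genes were already past both thresholds at 9 h, and 138 and 194 at 3 h. These comparisons share their controls, so their agreement is not independent. Set directly against 9 h, 24 h had 33 genes higher (0.206% of those tested) and 59 lower (0.368%) by more than 2-fold at an adjusted p under 0.01. With the adjusted p alone these were 1124 (7%) and 966 (6.02%). Of the 15 largest rises 10 were higher at 24 h than at 9 h, and of the 15 largest falls 5 were lower. The 24 h values chose these genes, which favors values further out at 24 h than at 9 h. Ripply3 went from 805 ± 74.0 at 9 h to 1955 ± 97.3 at 24 h (SD, n = 3, log2 difference 1.28, SE 0.06, edgeR adjusted p = 2e-08). Col13a1, a transmembrane collagen, went from 53.3 ± 5.75 to 214 ± 39.2, with 75.0 ± 13.1 in Serum/LIF. Cdx1, a homeobox gene of the Wnt list, went from 146 ± 14.1 to 409 ± 16.4.

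Some genes were lower at 24 h than at 9 h. Grin1, a glutamate receptor subunit, had 46.5 ± 9.97 normalized counts in Serum/LIF, 186 ± 52.6 at 9 h and 69.0 ± 6.25 at 24 h (SD, n = 3, log2 difference −1.43, SE 0.19, edgeR adjusted p = 9.9e-05). Stc1, a secreted regulator of calcium and phosphate, had 35.3 ± 8.40, 85.8 ± 18.5 and 13.8 ± 5.78. Egln3, an oxygen-sensing hydroxylase, had 674 ± 62.1, 710.4 ± 161 and 270.3 ± 25.7, and 8 of 16 hypoxia genes were lower at 24 h than at 9 h, with 2 higher. In glycolysis 13 of 23 genes were lower at 24 h than at 9 h and 0 higher. Chaperones of the endoplasmic reticulum fell in the same interval, 16 of 20, with 0 rising, and so did 9 of 24 stress genes with 1 rising. Hspa5, the main chaperone of that compartment, stood at 0.54 at 9 h and −0.03 at 24 h against Serum/LIF. Cholesterol genes were higher for 2 and lower for 9, and formative or primed genes for 2 and 7. Over all tested genes 7% were higher at 24 h than at 9 h and 6.02% lower by the adjusted p. Of 79 cytosolic ribosomal protein genes 8 were higher, near that share, and 0 lower.

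Long-term culture gave values from other libraries, with Serum/LIF controls of their own. At passage 10, with an adjusted p under 0.01, 3004 of 16054 tested genes were higher in EMM (18.7%) and 2997 lower (18.7%), and at passage 20 these were 2176 (13.6%) and 2003 (12.5%). Of the genes called higher at 24 h, 478 were tested there, and 230 were higher and 48 lower at passage 10 (median log2 fold change 1.12). At passage 20 these were 165 and 50 (median 0.49). Of the genes called lower at 24 h, 691 were tested, and 392 were lower and 11 higher at passage 10 (median −1.50), and 274 and 19 at passage 20 (median −0.87). The shares that passed the test in the direction of 24 h depend on the filter for low counts: of the higher genes they were 48.1% and 34.5% at passages 10 and 20, and 74.8% and 52.5% with at least 10 counts in every library. Of the lower genes they were 56.7% and 39.65%, and 59.8% at passage 20 with that filter. Marker sums differed between the media in these libraries too. The ES identity genes had 94179 to 98357 normalized counts in Serum/LIF and 114966 to 146376 in EMM at passage 10, and 96618 to 104411 and 92698 to 95368 at passage 20. The summed fibroblast genes had 2329 to 2752 normalized counts in Serum/LIF and 363 to 417 in EMM at passage 10, and 3690 to 7293 and 236 to 264 at passage 20. The mesendoderm genes had 600.4 to 1389 and 273 to 362 at passage 10, and 724 to 853 and 217 to 229 at passage 20. The part of the cells these markers stand for in the long-term values was not tested.

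The leading genes of 24 h were followed one by one. Of the 15 largest rises 11 were higher in EMM at passage 10 and 9 at passage 20, and of the 15 largest falls 13 and 12 were lower. Arrdc4 stood at −3.93 at passage 10 and −4.02 at passage 20 (edgeR adjusted p = 2.41e-11 and 5.97e-11). Ripply3 had 15.5 ± 6.66 normalized counts in Serum/LIF and 688 ± 58.7 in EMM at passage 10 (SD, n = 3), and stood at 5.48 and 2.97. Sept4, a septin gene, was the rise of 24 h (2.58) that was lower at passage 10, at −3.36 (edgeR adjusted p = 1.32e-07), and at passage 20 it stood at −0.89 and did not pass the test. Among the genes above, Idh2 stood at 1.87 and 1.09 at passages 10 and 20, Hexa at 2.02 and 2.07, Psat1 at −2.47 and −1.23, and Dnmt3b at −1.44 and 0.02.

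**Figure D4:**
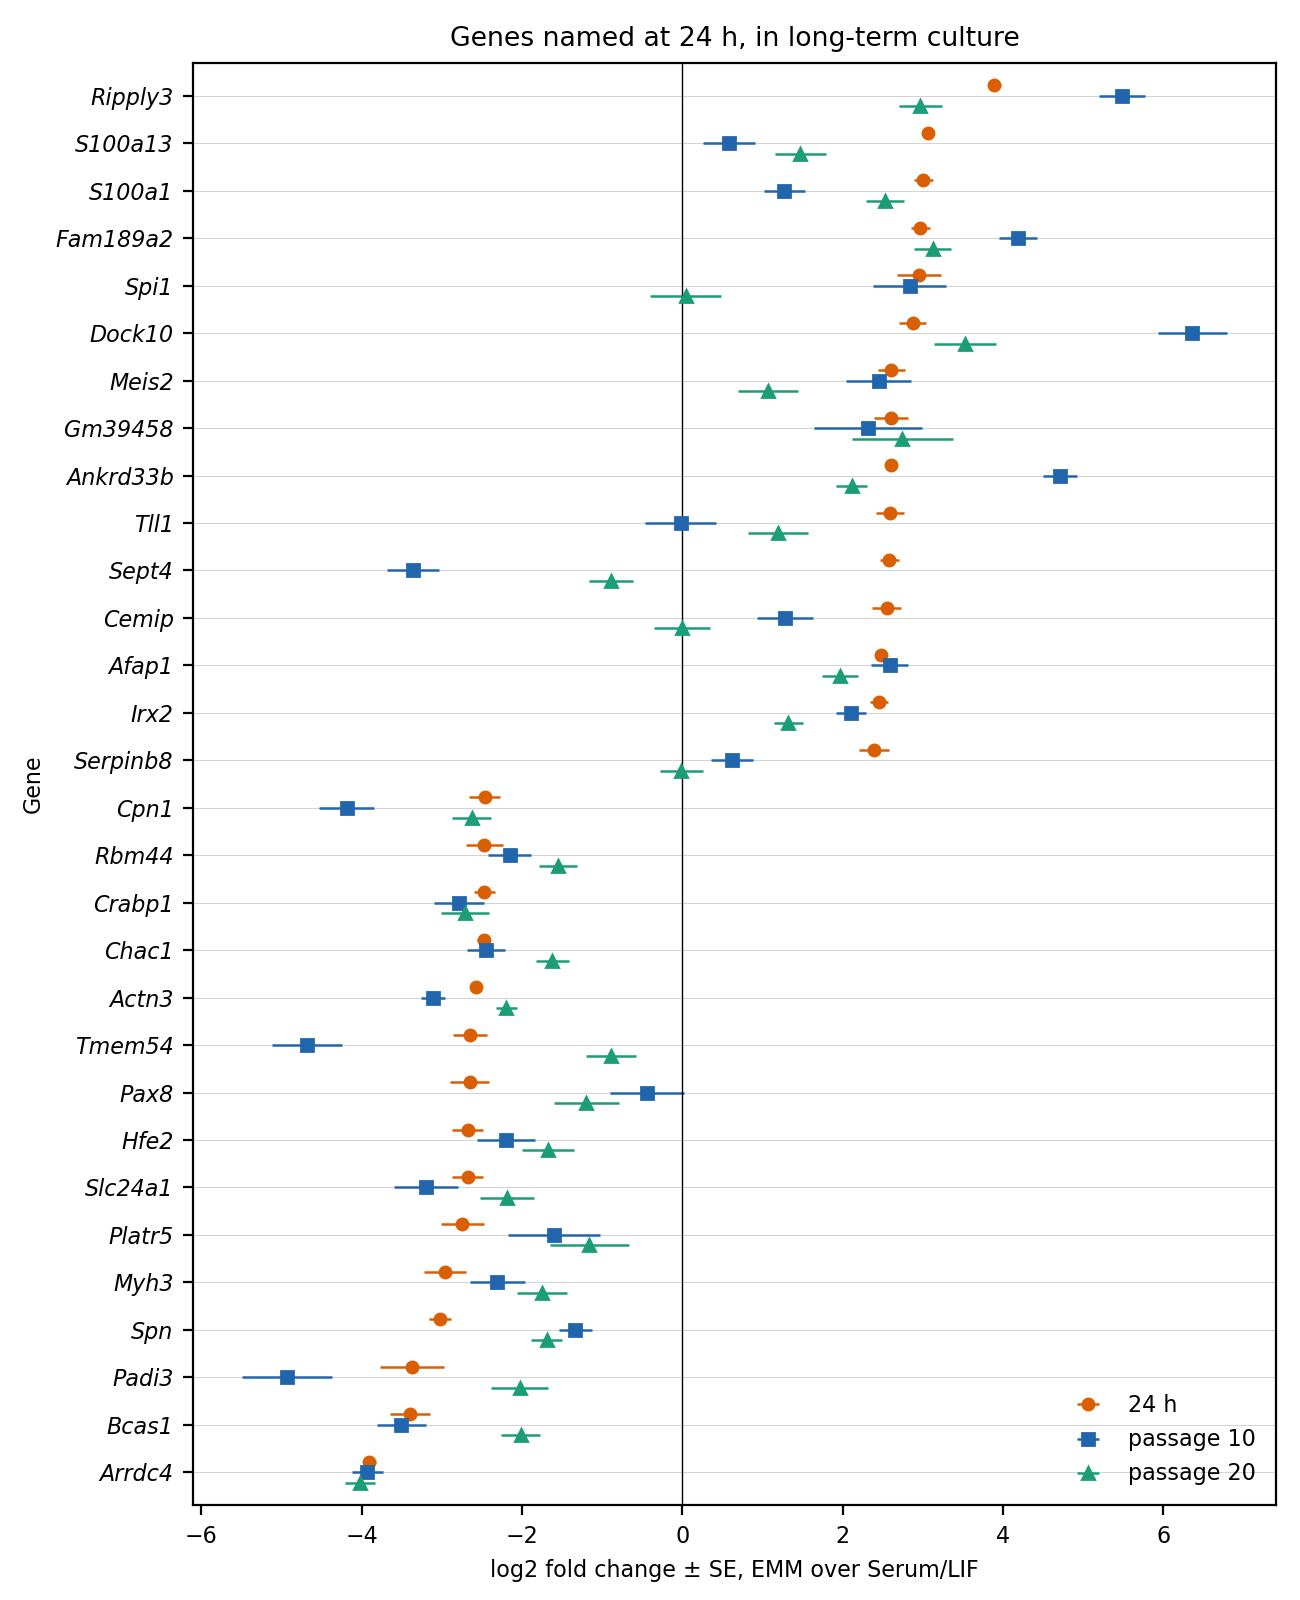
Log2 fold changes, EMM over Serum/LIF, with bars of 1 SE, of the 15 largest rises and the 15 largest falls at 24 h (orange), at passage 10 (blue) and at passage 20 (green), where tested. The 24 h values chose these genes, Arrdc4 lies at −3.91, −3.93 and −4.02, and Sept4 crosses 0 from 2.58 to −3.36 at passage 10.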

How the data were processed

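Total RNA of E14tg2a ESCs was purified with the RNeasy kit and depleted of ribosomal RNA, and libraries were made with NEBNext reagents. For the time course the authors deposited raw counts per gene, for which their processing notes name STAR and featureCounts on mm10, while the study's methods name HTSeq; the strand setting is not given in the sources used here. For the passage experiment the authors deposited expected counts from Salmon, which were rounded to whole numbers. Libraries were grouped by their titles.

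The 12 libraries of the time course were fitted together (R 4.3.3, edgeR 4.0.16, TMM scaling, filterByExpr, glmQLFit and glmQLFTest, no covariate), and so were the 18 of the passage experiment. Genes were called at a log2 fold change beyond 1 and an adjusted p under 0.01, and list members were counted by the adjusted p alone. The SE of a log2 fold change was taken from the fold change and its F statistic. The 15 largest rises and falls named are called genes with at least 50 normalized counts in a group mean and groups that do not overlap. The 10 genes with the largest gain and the 10 with the largest loss of reads were named too, and others by their place in a list. Gene lists and comparisons were chosen with earlier results of these data known. Genes named from lists, and those that changed most between 9 and 24 h, were chosen after their values were seen. Promoter windows come from RefSeq (GRCm38.p6), matched by symbol. The scripts were tested on simulated data. Alternatives were DESeq2 1.42.0, other scalings and filters, replicate blocks, and leaving out each library or, chosen after seeing the data, Serum/LIF replicate 2 and EMM replicate 1 together.

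Replicate numbers in the titles did not pair the samples, and the main fit was blocked neither by these nor by the numbers in the descriptions.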

Additional observations from a re-analysis of the deposited data

Results flagged for a closer look

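Sept4 had a log2 fold change of 2.58 at 24 h of EMM, −3.36 at passage 10 and −0.89 at passage 20, each against Serum/LIF of its own experiment. It is given here because the direction at 24 h and that of long-term culture were opposite. The difference between the experiments was not tested.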

How the results depend on the processing

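Counts of genes called at 24 h were 408 to 646 higher and 496 to 839 lower over the alternatives that kept both thresholds, with 496 lower at 10 counts in every library, and 3501 and 3556 with no fold threshold. Against 9 h, the 33 higher genes became 55 with no filter, 57 at an adjusted p under 0.05 and 1124 with no fold threshold, and the 59 lower became 37 at 10 counts in every library, 38 by DESeq2's Wald test, 93 at 0.05 and 966 with no fold threshold. With no filter edgeR's prior degrees of freedom were infinite, so no gene's own spread entered its test, and the calls of that fit carry no weight (Rpl36, whose groups overlap, passed it with an adjusted p of 3.63e-31 by edgeR). Leaving out 1 library gave 522 to 578 and 696 to 755 calls at 24 h, and 31 to 39 and 46 to 69 against 9 h. The replicate numbers of the titles did not pair the samples (correlations of −0.06, −0.13 and 0.10), and the replicate block gave 562 and 755. By the numbers in the descriptions, chosen after seeing the data, it gave 527 and 679. Serum/LIF replicate 1 is alone under its number there, so its values do not inform that comparison. The 2 pairs of libraries that share such a number had the highest correlations of the 9 pairs of a Serum/LIF and an EMM library. These were 0.28 (Serum/LIF replicate 2 and EMM replicate 1) and 0.15 (Serum/LIF replicate 3 and EMM replicate 2). At 10 counts in every library the share of 24 h genes that passed the test in the same direction was 74.8% (higher, passage 10), 52.5% (higher, passage 20) and 59.8% (lower, passage 20). Without 1 library these shares were 42.5% to 45.0%, 29.0% to 31.1% and 29.9% to 32.1%, with 49.5% to 52.9% for lower genes at passage 10. With all libraries they were 48.1%, 34.5% and 39.65%, with 56.7% for lower genes at passage 10, each above its range.

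List medians moved as follows. At 10 counts in every library they were −0.21 (mesendoderm), 0.47 (neural), −0.0136 (fatty acid oxidation, reversed), 0.40 (primitive endoderm), 0.33 (BMP), 0.0383 (immediate early, reversed), −0.98 (MHC class I) and −0.67 (germline). With no filter they were 0.46 (neural), −0.0024 (chaperones), 0.62 (TFEB and folliculin), 0.0091 (NRF2, reversed), −0.23 (S phase), −0.0823 (MYC) and −0.64 (germline). With only the 2 groups they were −0.20 (mesendoderm), 0.41 (primitive endoderm), 0.0485 (immediate early, reversed) and −0.66 (germline). With library totals alone they were −0.0097 (fatty acid oxidation, reversed), 0.58 (TFEB and folliculin) and −0.0007 (DNA methylation, reversed). With the replicate block by descriptions they were −0.0022 (pentose phosphate, reversed), 0.0081 (chaperones, reversed), 0.53 (TFEB and folliculin), −0.77 (formative), 0.15 (LIF), −0.13 (Nodal) and −0.0907 (BCL2).
With Serum/LIF replicate 2 and EMM replicate 1 both left out, also chosen after seeing the data, they were 0.24 (cytosolic ribosome), −0.008 (fatty acid oxidation, reversed), 0.49 (primitive endoderm), 0.50 (trophectoderm), −0.21 (Wnt), 0.47 (BMP), −0.22 (S phase), −0.0747 (MYC), 0.22 (sirtuin) and −0.0424 (DNA methylation, reversed).
Leaving out 1 library gave medians of −0.24 to −0.0043 (fibroblast), −0.21 to −0.0269 (mesendoderm), 0.0788 to 0.21 (Leloir), −0.0674 to 0.21 (pentose phosphate), 0.18 to 0.24 (cytosolic ribosome), −0.0035 to 0.0199 (fatty acid oxidation), −0.0336 to 0.0078 (chaperones), 0.54 to 0.63 (TFEB and folliculin) and −0.0293 to 0.0221 (NRF2). For further lists these were 0.11 to 0.24 (naive), 0.46 to 0.58 (primitive endoderm), 0.42 to 0.51 (trophectoderm), 0.0654 to 0.15 (LIF), −0.17 to −0.13 (Nodal), 0.37 to 0.48 (BMP), −0.40 to −0.23 (immediate early), 0.30 to 0.36 (adhesion) and −0.18 to −0.023 (G1). For the rest they were −0.26 to −0.23 (S phase), −0.25 to −0.20 (G2 and mitosis), −0.27 to −0.21 (p53), −0.20 to −0.0932 (BCL2), −0.14 to −0.075 (MYC), 0.14 to 0.21 (sirtuin), −0.0568 to 0.0249 (DNA methylation) and −1.29 to 0.0123 (histone). The upper end of the histone range is without Serum/LIF replicate 1 and the lower end without Serum/LIF replicate 2.

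Of 153 of the genes named in the text, 141 kept direction and side of the threshold under each alternative run. Beside the losses given with the results, the calls of Atf3 (−0.54) and Naglu (−0.26) were lost with both low libraries left out, and that of Naglu with no filter (−0.35). The call of Stc1 was lost without Serum/LIF replicate 1 or 2 or EMM replicate 2 and with both low libraries left out (−1.28 to −1.05), Rn7sk (−2.60) passed the test in 6 alternatives (−3.13 to −2.34), and Grin1 and Rpl36 passed it with no filter. With library totals Mlx stood at −0.0136, and it stood at −0.003 at 10 counts in every library. Hspa5 and Slc7a11 stood at 0.0015 and 0.0179 with no filter, and at 0.0076 and 0.0202 with the replicate block by descriptions, and Slc7a11 at 0.0166 with Serum/LIF replicate 2 and EMM replicate 1 both left out. Without 1 library they ranged from −0.0593 to 0.0162 (Hspa5), −0.0383 to 0.0442 (Mlx), −0.0672 to 0.0549 (Slc7a11). The cause of these moves was not tested. The 3 libraries a group limit the precision of each error.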
